A study of Solanum lycopersicum with 2 samples.

Results

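The 31 gene models described here are those listed by identifier as the light-harvesting chlorophyll-binding proteins of tomato, which are the chlorophyll a/b-binding proteins of photosystems I and II together with PsbS. They were listed by family, but the list was drawn up with earlier results of these data known. All 31 of 31 were found in both libraries, among 24915 models listed in either. The heat stress library was made from leaves of Moneymaker plants aged 8 weeks that had 1 h at 39°C in a growth chamber (120 μmol m-2 s-1 of light) and 1.5 h of recovery at 24°C. The control library was made from young leaves of plants of the same cultivar and age, grown like those of the other group in a glasshouse at 24°C by day (16 h) and 20°C by night (8 h). Each condition has 1 library, so no difference below has a replicate check and no test between conditions was possible. Whether the control plants also stood in the chamber, and the hour at which either set was sampled, are not in the labels. Heat, transfer, sampling hour and any difference in leaf age between the libraries therefore cannot be told apart. In whole leaves neither can fewer cells of a type and less RNA per cell.

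Light-harvesting proteins bind chlorophyll and carotenoids in the thylakoid membrane of the chloroplast and pass the energy of absorbed light to the reaction centres of the photosystems. They are encoded in the nucleus by a family that includes tandem arrays of closely related genes, and they are among the most abundant transcripts of green leaves. PsbS belongs to the same protein superfamily and takes part in the dissipation of excess light energy as heat. In plants the transcripts of this family are well known to follow light and the daily clock.

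The deposited files give chromosome, strand and identifier for each model but no gene name. None of the members (0 of 31) matched an identifier in the RefSeq gene table used here (assembly SLM_r2.1). That table holds 18 genes whose symbol or synonym names a chlorophyll-binding protein or PsbS, with 4 on chromosome 2, 3 each on chromosomes 3 and 6, 2 each on chromosomes 1, 10 and 12, and 1 each on chromosomes 5 and 7. The symbols could not be assigned to single identifiers, so no member is given a photosystem or subunit below, and the family label could not be checked model by model. The leaf label could not be checked with marker genes for the same reason.

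Levels are given as RPM, the reads of a model per 1000000 mapped reads of its library. The libraries were made by MACE (massive analysis of cDNA ends), which reads only the 3' end of each poly-A transcript and takes 1 read per transcript, so RPM values of different genes were compared without a term for gene length. Mapped reads numbered 13857252 in the heat stress library and 11534512 in the control library. Bracketed ranges are 95% exact intervals that cover counting error only.

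Every member had a lower level in the heat stress library than in the control library. Summed over the 31 members, the level was 41209.5 RPM (41103 to 41317) in the heat stress library and 56692 RPM (56555 to 56830) in the control library. The ratio of these sums was 0.727 (0.724 to 0.729), a log2 ratio of -0.46. The members thus took 4.12% of all mapped reads in the heat stress library and 5.67% in the control library. Of the reads that lay in gene models they took 5.79% in the heat stress library and 7.82% in the control library. The summed level of the 24884 other models was nearly the same in both, at 670212 RPM in the heat stress library and 668267 RPM in the control library. Among them, however, the 61 models with a mean of 1000 RPM or more had a sum of 125280 RPM in the heat stress library and 154260 RPM in the control library, a ratio of 0.812 (0.810 to 0.814). Their summed difference of 28980 RPM was larger than that of the members, 15483 RPM.

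**Figure D1:**
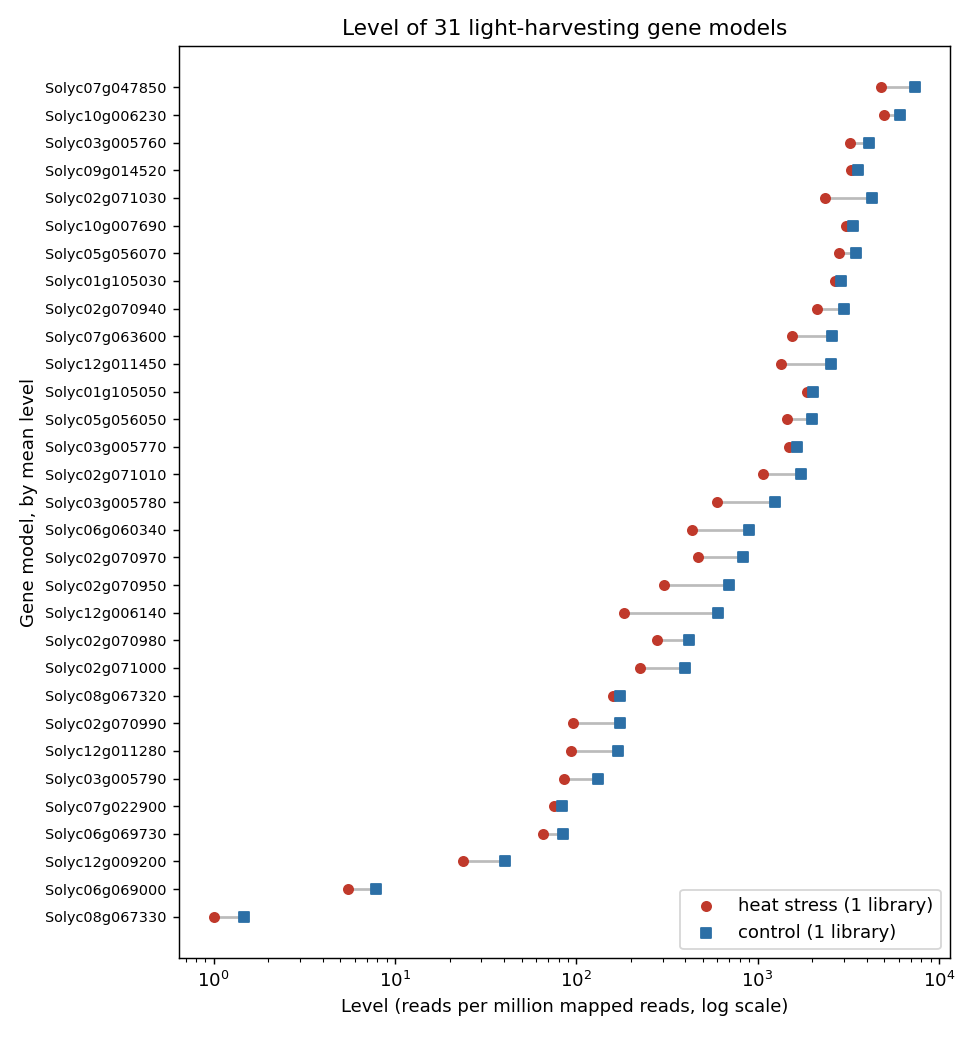
Level of each of the 31 members in RPM (log scale) in the heat stress library (red circles) and the control library (blue squares), 1 library each, ordered from the highest mean level at the top. The heat stress value lies left of the control value for every member, from 4791.8 and 7367 RPM for Solyc07g047850 down to 1.01 and 1.47 RPM for Solyc08g067330.

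The members ranged over more than 3 orders of magnitude in level. In the heat stress library the lowest was 1.01 RPM, the median 596 RPM and the highest 4968 RPM, and in the control library these were 1.47, 1244 and 7367 RPM. Above 1000 RPM lay 15 members among 75 such models in the heat stress library and 16 among 79 in the control library. Of the 100 most abundant models, 15 were members in the heat stress library and 18 in the control library. With rank 1 the most abundant model, 25 members stood further down the order of all models in the heat stress library than in the control library, 5 stood further up, and Solyc03g005760 was at rank 10 in both. The same count was not made over all models, so these numbers do not set the members apart from other models.

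The comparison with the rest of the leaf transcriptome used the log2 ratio of heat stress to control after 1 RPM was added to each level, over the 11271 models whose mean was 5 RPM or more. Of the members 30 passed this filter, and Solyc08g067330, with 14 reads in the heat stress library and 17 in the control library, did not. A log2 ratio below 0 was found in 30 of the 30 members, where 39.4% of all models had one. At least 1.5-fold lower were 15 members, against 6.36% of all models, and at least 2-fold lower were 4 members, against 1.66%. No member was at least 1.5-fold or 2-fold higher, where 12.2% and 3.91% of all models were. The median log2 ratio was -0.60 for the members and 0.10 for all models. When both libraries were scaled to a median ratio of 1, which lowers every log2 ratio by 0.11 before the pseudocount, 2.35% of all models were 2-fold lower and 2.95% were 2-fold higher, and 5 members were 2-fold lower. With that scaling 9.07% of all models were 1.5-fold lower and 8.82% were 1.5-fold higher, and 17 members were 1.5-fold lower. A log2 ratio below 0 was then found in 50.1% of all models and again in 30 members.

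How far the members stood from other models depended on the level at which they were compared. At a mean of at least 1000 RPM there were 76 models, 15 of them members. All 15 members were lower in the heat stress library, and so were 85.5% of these 76 models. At least 1.5-fold lower were 5 of the 15 members and 26.3% of the 76 models, and at least 2-fold lower were 0 of the members and 5.26% of the models. The median log2 ratio at this level was -0.35 for members and -0.32 for the 61 models that are not members, so the most abundant light-harvesting models had ratios close to those of other very abundant transcripts. Models with fractional reads in either library had the lower medians at this level. A fractional total shows that reads were divided among places in the genome, but not how many. A whole total can still hold divided reads. The median was -0.56 for the 10 members with fractional reads and -0.14 for the 5 with whole reads. It was -0.33 for the 42 other models with fractional reads and -0.21 for the 19 with whole reads. Of these other models 88.1% with fractional reads and 68.4% with whole reads were lower in the heat stress library. From 100 to under 1000 RPM the values lay further apart. There all 11 members were lower, against 49.8% of the 1152 models in this range, 9 were at least 1.5-fold lower, against 12.2%, and 4 were at least 2-fold lower, against 3.3%. The median log2 ratio in this range was -0.86 for members and 0.01 for the 1141 other models. Most of these 11 members lie in runs of neighbouring identifiers on chromosomes 2 and 3, so they are not separate loci. No count with neighbours summed was made for this range. Reads were fractional for 10 of these 11 members. Among the other models in the range the median was 0.02 for the 461 with fractional reads and -0.01 for the 680 with whole reads. In the lowest range, from 5 to under 100 RPM, the 4 members had a median of -0.40 and the 10039 other models one of 0.12.

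**Figure D2:**
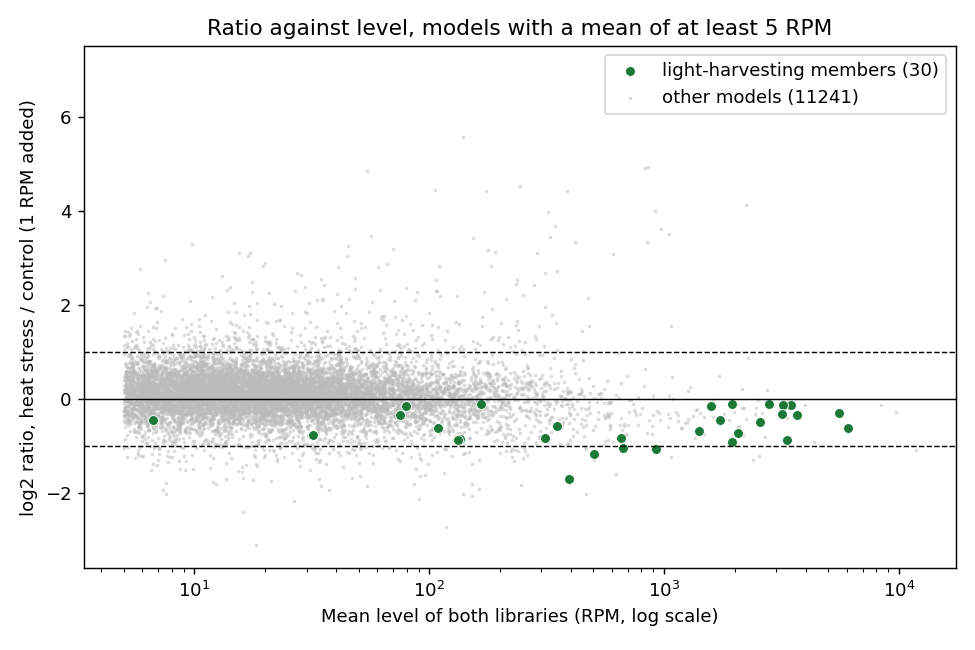
Log2 ratio of heat stress to control (1 RPM added to each level) against the mean level of both libraries in RPM (log scale) for the 30 members (green) and the 11241 other models (grey) whose mean was 5 RPM or more. Dashed lines mark 2-fold differences. All 30 members lie below 0, with 4 below the lower dashed line, all at mean levels under 1000 RPM.

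The member with the largest relative difference was Solyc12g006140 on chromosome 12. It had 184 RPM (177 to 191) in the heat stress library, from 2551 reads, and 605 RPM (591 to 619) in the control library, from 6976 reads. The ratio was 0.304 (0.291 to 0.319), with a log2 ratio of -1.71, and only 22 of the 11271 models had a lower log2 ratio. Its rank was 592 in the heat stress library and 134 in the control library. Its reads were whole numbers in the control library and fractional in the heat stress library, so part of its heat stress reads was divided with at least 1 other place in the genome.

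The next was Solyc02g070950 on chromosome 2, with 307 RPM (298 to 316) in the heat stress library and 695 RPM (680 to 711) in the control library. The ratio was 0.441 (0.425 to 0.458), with a log2 ratio of -1.18. Solyc03g005780 on chromosome 3 had 596 RPM (583 to 608) in the heat stress library and 1244 RPM (1223 to 1264) in the control library, a ratio of 0.479 (0.466 to 0.492) and a log2 ratio of -1.06. Both lie in arrays of neighbouring members and had fractional reads in both libraries. Solyc06g060340 on chromosome 6 was the fourth and last member past the 2-fold threshold, and the only one of the 4 with whole-number reads in both libraries. It had 435 RPM (424 to 446) in the heat stress library, from 6022 reads, and 903 RPM (886 to 920) in the control library, from 10414 reads, with a ratio of 0.481 (0.466 to 0.497) and a log2 ratio of -1.05.

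At the other end, 6 members kept at least 0.9 of their control level. The closest to its control level was Solyc01g105030 on chromosome 1, with 2682 RPM (2655 to 2709) in the heat stress library and 2886 RPM (2855 to 2917) in the control library. The ratio was 0.929 (0.916 to 0.943), with a log2 ratio of -0.11. Solyc08g067320 on chromosome 8 had 159.7 RPM (153 to 166) in the heat stress library and 173 RPM (166 to 181) in the control library, a ratio of 0.921 (0.867 to 0.979) and a log2 ratio of -0.12. Solyc01g105050, near the first of these on chromosome 1, had 1864 RPM (1842 to 1887) in the heat stress library and 2026 RPM (2000 to 2052) in the control library, a ratio of 0.920 (0.904 to 0.937) and a log2 ratio of -0.12. The ratio intervals of these 3 members overlap, so their order is not resolved at this depth. The remaining 3 were Solyc09g014520, Solyc10g007690 and Solyc03g005770, with ratios of 0.915, 0.908 and 0.903.

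**Figure D3:**
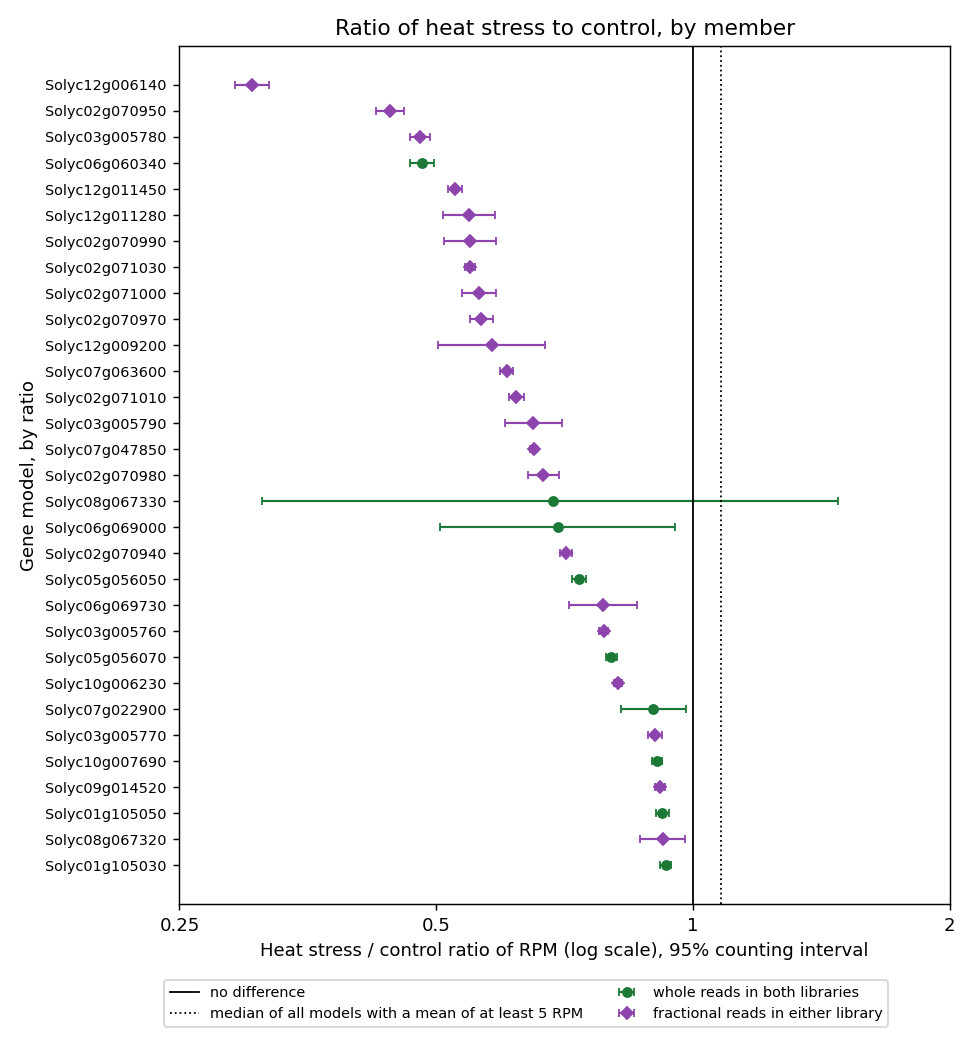
Ratio of heat stress to control RPM (log scale) for each member with its 95% counting interval, ordered from the lowest ratio at the top. Green circles mark the 9 members with whole reads in both libraries and purple diamonds the 22 with fractional reads in either. The ratios run from 0.304 to 0.929, and the interval of 1 member, Solyc08g067330, reaches past 1 (solid line) and past the median of all models that passed the 5 RPM filter, 1.08 (dotted line).

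Over all 31 members the lowest ratio was 0.304, the median 0.668 and the highest 0.929. The interval lay wholly below 1 for 30 members. The same count was not made over all models. With many reads a counting interval can exclude 1 at a small difference, as for Solyc01g105030 at 0.929 (0.916 to 0.943). The interval lay wholly below the ratio of the sums, 0.727, for 17 members and wholly above it for 10, and held it for 4. The members therefore did not share 1 common ratio within counting error. Of the 31 ratios, 4 were under 0.5 and 9 were at least 0.8.

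The 10 members with the highest mean level held 74.9% of the members' reads in the heat stress library and 71.9% in the control library. Their summed level was 30869 RPM in the heat stress library and 40769 RPM in the control library, a ratio of 0.757 (0.754 to 0.760). The other 21 members had 10340 RPM in the heat stress library and 15923 RPM in the control library, a ratio of 0.649 (0.645 to 0.654). The less abundant members were thus the lower in proportion when summed.

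The most abundant was Solyc07g047850 on chromosome 7, which ranked 6 in the heat stress library and 4 in the control library. It had 4791.8 RPM (4755 to 4828) in the heat stress library and 7367 RPM (7317 to 7416) in the control library, a ratio of 0.650 (0.644 to 0.657) and a log2 ratio of -0.62. It supplied 16.6% of the summed difference of 15483 RPM between the libraries, more than any other member. Without it the ratio of the sums was 0.738 (0.736 to 0.741).

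Solyc10g006230 on chromosome 10 took the first place among the members in the heat stress library. It had 4968 RPM (4931 to 5005) there, at rank 4, and 6079 RPM (6034 to 6124) in the control library, at rank 5. The ratio was 0.817 (0.809 to 0.826), with a log2 ratio of -0.29. The order of the leading pair of members thus differed between the libraries, with both lower in the heat stress library.

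Solyc09g014520 on chromosome 9 had 3297 RPM (3267 to 3328) in the heat stress library and 3604 RPM (3570 to 3639) in the control library, a ratio of 0.915 (0.903 to 0.927) and a log2 ratio of -0.13. Solyc10g007690, the other member of chromosome 10, had 3065 RPM (3036 to 3094) in the heat stress library and 3375 RPM (3341 to 3408) in the control library, a ratio of 0.908 (0.896 to 0.921) and a log2 ratio of -0.14. Both moved up in rank although their levels were lower, to ranks 9 and 11 in the heat stress library, against ranks 12 and 17 in the control library. Solyc07g063600, on the same chromosome and strand as Solyc07g047850, was further from its control level. It had 1548 RPM (1527 to 1569) in the heat stress library and 2560.1 RPM (2531 to 2589) in the control library, a ratio of 0.605 (0.594 to 0.615) and a log2 ratio of -0.73.

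By identifier number, 18 members fall into 5 groups of neighbours whose numbers are at most 100 apart, and 13 stand alone. The summed ratio was 0.729 (0.725 to 0.732) for the members in groups and 0.725 (0.722 to 0.729) for those outside. These intervals overlap, while the arrays differed from each other.

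The largest array, on chromosome 2, holds 8 members from Solyc02g070940 to Solyc02g071030, all on the same strand and all with fractional reads. Together they had 6924 RPM (6880 to 6968) in the heat stress library and 11531 RPM (11469 to 11593) in the control library, a ratio of 0.600 (0.596 to 0.605). This array alone supplied 29.8% of the members' summed difference. Its leading member was Solyc02g071030, with 2349 RPM (2324 to 2375) in the heat stress library at rank 21 and 4287 RPM (4249 to 4325) in the control library at rank 8, a ratio of 0.548 (0.540 to 0.556) and a log2 ratio of -0.87. Solyc02g070940, at the other end of the array, had 2123 RPM (2099 to 2148) in the heat stress library and 2993 RPM (2961 to 3025) in the control library, a ratio of 0.710 (0.699 to 0.721) and a log2 ratio of -0.49, the highest ratio in the array.

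Between these ends Solyc02g071010 had 1074 RPM in the heat stress library and 1729 RPM in the control library. Solyc02g070970 had 471 RPM in the heat stress library and 834 RPM in the control library, and Solyc02g070980 had 279.5 and 419 RPM in the same order. Solyc02g071000 had 225 RPM in the heat stress library and 399.8 RPM in the control library, and Solyc02g070990, the lowest of the array, had 95.4 and 174 RPM in the same order. Their ratios lay between 0.547 for Solyc02g070990 and 0.668 for Solyc02g070980. All 8 were lower in the heat stress library, with ratios from 0.441 to 0.710 over the array.

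The array on chromosome 3 holds 4 members on both strands. Its sum was 5409 RPM (5370.1 to 5448) in the heat stress library and 7145 RPM (7096 to 7194) in the control library, a ratio of 0.757 (0.750 to 0.765). Its members ran from a ratio of 0.479 to one of 0.903. Solyc03g005760 had 3229.8 RPM (3200.0 to 3259.9) in the heat stress library and 4111 RPM (4074 to 4148) in the control library, a ratio of 0.786 (0.776 to 0.796) and a log2 ratio of -0.35. Solyc03g005770 had 1497 RPM in the heat stress library and 1658 RPM in the control library, a ratio of 0.903 (0.885 to 0.921). The adjacent Solyc03g005780, described above, was at 0.479, so 2 neighbours on the same strand differed by far more than their counting intervals. Both had fractional reads in both libraries, and these intervals do not cover the division of reads. Whether that division accounts for the gap was not tested. Solyc03g005790 had 86.1 RPM in the heat stress library and 132 RPM in the control library, a ratio of 0.650 (0.602 to 0.701).

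**Figure D4:**
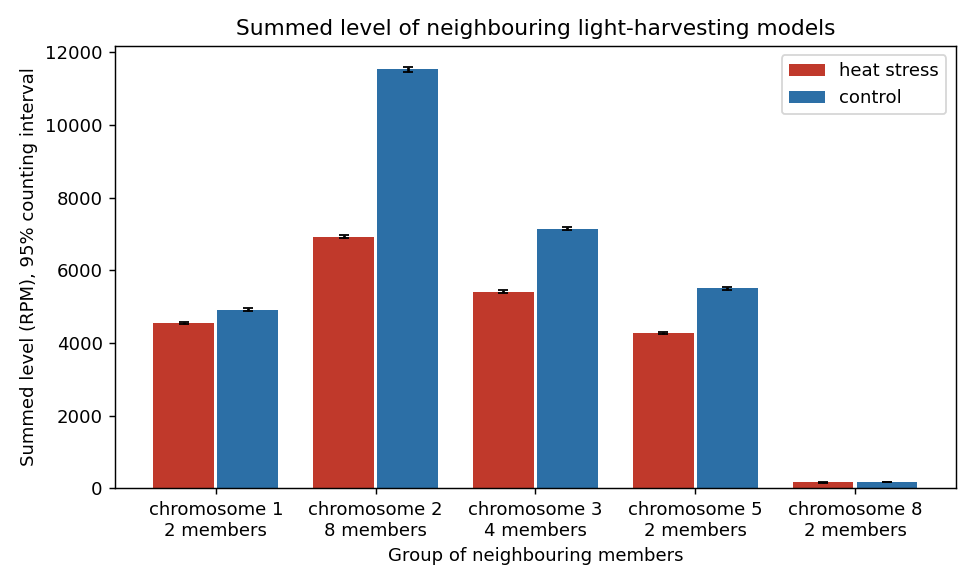
Summed level in RPM of the 5 groups of neighbouring members in the heat stress library (red, left bar) and the control library (blue, right bar), 1 library each, with 95% counting intervals. The difference is widest for the 8 members on chromosome 2, at 6924 and 11531 RPM, and narrow for the pairs on chromosomes 1 and 8.

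The pair on chromosome 1, with whole reads in both libraries, had a sum of 4546 RPM in the heat stress library and 4911 RPM in the control library, a ratio of 0.926 (0.915 to 0.936). Its 2 members had nearly the same ratio. The pair on chromosome 5, also with whole reads but on opposite strands, had 4276 RPM in the heat stress library and 5498 RPM in the control library, a ratio of 0.778 (0.769 to 0.787). In it Solyc05g056070 had 2815 RPM (2787 to 2843) in the heat stress library and 3508 RPM (3474 to 3543) in the control library, a ratio of 0.802 (0.791 to 0.814) and a log2 ratio of -0.32. Solyc05g056050 had 1462 RPM in the heat stress library and 1989.9 RPM in the control library, a ratio of 0.735 (0.721 to 0.749). The pair on chromosome 8 was dominated by Solyc08g067320, since Solyc08g067330 had 1.01 RPM in the heat stress library and 1.47 RPM in the control library. The interval of the ratio of Solyc08g067330, 0.313 to 1.48, holds 1, so no difference was detectable at this depth.

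Models that lie between members in identifier order but are not members did not all share their direction. Solyc05g056060, between both members of chromosome 5, had 46.7 RPM in the heat stress library and 36.1 RPM in the control library, a log2 ratio of 0.36. Solyc01g105040, between both members of chromosome 1 and on the opposite strand, had 4.11 RPM in the heat stress library and 2.69 RPM in the control library. These levels came from 57 and 31 reads in the same order and lie below the 5 RPM filter. No interval was computed for its ratio, so its direction is uncertain. In the array of chromosome 2, Solyc02g071020 on the opposite strand had 9.78 RPM in the heat stress library and 15.3 RPM in the control library, a log2 ratio of -0.59. Solyc02g070960, also within it, had under 1 read in the heat stress library and was not listed in the control library. Whether the authors counted by strand is not stated in the labels or file headers, so where models overlap on opposite strands their reads may be mixed.

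Of the members that stand alone, 3 more lie on chromosome 12. Solyc12g011450 had 1342 RPM in the heat stress library and 2552 RPM in the control library, a ratio of 0.526 (0.516 to 0.535). Solyc12g011280 had 93.2 RPM in the heat stress library and 171 RPM in the control library, a ratio of 0.546 (0.509 to 0.586). Solyc12g009200 had 23.6 RPM in the heat stress library and 40.6 RPM in the control library, a ratio of 0.581 (0.502 to 0.670). With Solyc12g006140 included, the ratios of the 4 members of this chromosome ran from 0.304 to 0.581, and all 4 had fractional reads in at least the heat stress library.

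The other weakly expressed members that stand alone lie on chromosomes 6 and 7. Solyc07g022900 had 75.3 RPM in the heat stress library and 83.7 RPM in the control library, a ratio of 0.899 (0.823 to 0.982). Solyc06g069730 had 65.96 RPM in the heat stress library and 84.1 RPM in the control library, a ratio of 0.785 (0.716 to 0.859). Solyc06g069000, with 76 reads in the heat stress library and 91 in the control library, was at 5.48 and 7.89 RPM, and its ratio of 0.695 (0.506 to 0.953) is the least precise of those past the filter. The 3 members of chromosome 6 thus ran from 0.481 for Solyc06g060340 to 0.785 for Solyc06g069730.

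Reads were fractional in both libraries for 19 members, in the heat stress library only for 2 and in the control library only for 1, and whole in both for 9. Among all models past the filter, 28.1% had fractional reads in at least 1 library. The 22 members with fractional reads had ratios from 0.304 to 0.921 with a median of 0.613, and the 9 with whole reads had ratios from 0.481 to 0.929 with a median of 0.802. Their sums gave a ratio of 0.687 (0.684 to 0.690) for members with fractional reads and 0.839 (0.834 to 0.845) for those with whole reads. Over all models past the filter that are not members the median log2 ratio was 0.11 both for the 3148 with fractional reads and for the 8093 with whole reads, but at a mean of 1000 RPM or more it was -0.33 and -0.21 in the same order, as given above. How the division of reads bears on the ratio of a single member was not tested, and a sum over an array is unaffected only by division within that array.

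The deposited height of the highest peak of reads, which is made of the same reads and so is no independent evidence, was lower per mapped read of the library in the heat stress library for all 31 members, with a median ratio of 0.652. The median share of a member's reads in that peak was 30.7% in the heat stress library and 30.8% in the control library. Over the 8956 models past the filter that had 100 or more reads in each library the medians were 24.7% in the heat stress library and 25.4% in the control library. The share was highest, apart from the few reads of Solyc08g067330, in neighbouring members of chromosome 2. It was 76.2% in the heat stress library and 70.3% in the control library for Solyc02g070980, and 64.8% and 56.5% in the same order for Solyc02g070970. The share was larger in the heat stress library for 18 of the 31 members. Neither this count nor that of lower peaks was made over all models, so neither can be read as a trait of the members.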

How the data were processed

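RNA of tomato leaves was profiled by MACE in 2 libraries, 1 per condition. Per the labels' protocols, poly-A RNA was captured and the last 500 bp were sequenced. FastQC is named by the submitters' processing notes, while neither labels nor headers name an aligner, a build or an annotation. Per the file headers, the authors deposited an estimated count of reads per model, fractional where a read was divided among places, and the count of all mapped reads. The deposited column headed TPM equalled reads per 1000000 mapped reads on every row (largest difference 3.42e-08), so it is RPM. The authors also deposited the height of the highest peak, a signal in reads.

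A model missing from a file was set to 0 there. The log2 ratio was taken after adding 1 RPM, and a mean of at least 5 RPM was required, which is 69 reads in the heat stress library and 58 in the control library. A fold of 2 or 1.5 was counted. Intervals are exact Poisson for levels and conditional exact binomial (Clopper-Pearson) for ratios, at 95%, on reads rounded to whole numbers. With 1 library per group no p-value was computed. Reads were called whole within 0.000001. The members, lists and ranges of level were chosen with earlier results of these data known. Full values are given for the 10 members of highest mean level and for the 3 highest and 3 lowest log2 ratios, and others more briefly. Alternative pseudocounts, filters, scalings and treatments of shared reads were computed. Steps were tested on simulated whole-number reads with changes larger than the 2-fold threshold, so divided reads and milder folds were not covered. Python 3.11.15, pandas 2.3.3, numpy 2.4.6, scipy 1.17.1 and matplotlib 3.10.9 were used.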

Additional observations from a re-analysis of the deposited data

How the results depend on the processing

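The counts of 4 members at least 2-fold lower, 15 at least 1.5-fold lower, 30 lower at any fold and 0 higher at either fold stayed within 1.5 times their value with pseudocounts of 0.1 and 5 RPM, with no filter, with a filter of 20 RPM and with the median ratio, trimmed mean and gene-model read scalings. With only members of whole-number reads, which leaves 9 members of which 8 passed the filter, they were 1, 1 and 8. The 1 member past either fold was Solyc06g060340. Of the 8093 other models past the filter with whole reads, 485 were at least 1.5-fold lower and 39.1% were lower at any fold. With neighbours summed, which leaves 18 units, the counts of members were 2, 8 and 18. Other models were not summed in this way, so these counts have no share over all models beside them. No member was 1.5-fold higher under any of these settings. The log2 ratio of the sums, -0.46, was -0.57 with the median ratio scaling, -0.56 with the trimmed mean, -0.43 with the gene-model scaling and -0.25 with whole-number reads only. The median log2 ratio of the members, -0.60, was -0.71, -0.70, -0.57 and -0.23 in the same order, -0.43 with neighbours summed, -0.58 with a pseudocount of 5 RPM or with no filter, and -0.62 with a filter of 20 RPM. The scalings shift every log2 ratio by a fixed amount before the pseudocount. This is -0.11 for the median ratio, -0.10 for the trimmed mean and 0.03 for the gene-model scaling. For the whole-number and neighbour settings, the cause was not tested apart from the smaller number of members or units. Of 255 recomputed log2 ratios of single members, 62 moved by more than their counting interval and 0 changed sign. None of the 255 could have changed sign, so this count is no check of direction. The filter, whole-number and peak settings leave a member's own ratio as it was, and a pseudocount cannot reverse it. The median ratio and trimmed mean scalings lower every ratio. Only the gene-model scaling raises them, by a factor of 1.02, which is too small to bring the highest member ratio, 0.929, to 1. No member had a peak above its reads, so leaving such members out changed nothing. No paired analysis was possible because there was 1 library for each condition. Depth limits the members under 10 RPM, and the spread between plants or library preparations is unknown for all.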
